A study of Mus musculus with 6 samples.

Results

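The genes that copy DNA were followed in mouse T helper 9 (Th9) cells with and without the transcription factor IRF1. A list of 43 genes was used, written from the known parts of the replication machinery and of the switch from G1 into S phase, and its members were found by matching Ensembl identifiers to mouse gene symbols. All 43 were among the 41388 genes of the table and all 43 passed the filter on low values that left 11379 genes for testing. The comparison covered 3 wild-type (WT) and 3 Irf1-/- libraries of naive CD4+ T cells taken from spleen and lymph nodes of mice on a C57BL/6 background. The methods of the study give mice of 8 to 12 weeks. Irf1-/- mice are deficient in all cells, so that the T cells had also developed without IRF1. The study used these libraries to ask which transcripts depend on IRF1 when Th9 cells meet IFN-γ. Every culture, WT included, was primed through CD3 and CD28 with IL-2, IL-4 and TGF-β, the Th9 condition. All received IFN-γ at 5 ng per ml for 2 days. The general culture methods of the study also give an antibody to mouse IFN-γ, and name rat IFN-γ as the cytokine added. The values describe the genotype difference under this 1 condition. The study describes the 3 cultures of a genotype as independent biological samples. The labels do not say which animals they came from, and the p-values measure the spread between these libraries.

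A eukaryotic chromosome is copied from many origins. In G1, the origin recognition complex, Cdc6 and Cdt1 load the ring of Mcm2 to Mcm7 onto DNA, and on entry into S phase Mcm10, Cdc45 and the GINS proteins turn this ring into a running helicase. Primase and polymerase α then start each strand, the clamp loader sets the sliding clamp PCNA, polymerases δ and ε extend, and Fen1 and DNA ligase 1 join the fragments of the lagging strand. Transcription of most of these genes rises when cyclin-dependent kinases with D and E cyclins inactivate the retinoblastoma protein and release E2F factors. Naive T cells are at rest, and after stimulation they leave this state and divide within the first days of culture. IRF1 is a factor induced by interferons that binds the interferon-stimulated response element.

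Promoter sequence was examined because E2F factors are the textbook regulators of this group. The RefSeq promoter windows of build GRCm38.p6, 250 bases before to 50 bases after a start, held an entry for 35 of the 43 genes. The search covered the E2F words TTTCCCGC, TTTCGCGC, TTTGCCGC and TTTGGCGC on both strands. At least 1 of them lay in a window of 16 of the 35 genes (45.7%). The share was 5.0% of the 8795 tested genes with a window, 2.6% of all 27025 genes with a window, and 3.8%, 1 of 26, for a list of mitosis genes. By window rather than by gene, 36.4% of the 44 windows of the replication genes and 2.3% of all 32851 windows held a word. Among genes whose level fell in Irf1-/- cells by the test given below, 6 of 15 (40.0%) had a word, and among the replication genes not called 10 of 20 had one. The interferon-stimulated response element in a long form, written GAAANNGAAA, matched in 1 of the 35 genes (2.9%), Pold2, against 3.7% of tested genes. Its shorter form AANNGAAA, which lies within the long one and was added after seeing the data, matched in 7 of the 35, against 20.7% of tested genes, and in 3 of the 15 genes called lower. The CCAAT box, CCAAT, was in 23 of the 35 (65.7%), against 43.4% of tested genes and 76.9% of the 26 mitosis genes. It was in 13 of the 15 genes called lower (86.7%) and in 10 of the 20 not called. A match of letters is a description and not a bound site. The 250 bases before the start are shown for 5 genes on the strand of the gene, 5′ to 3′, with the E2F words in capitals. Mcm6 (chr1:128359706-128359955, - strand) had the most matches, 2 of them overlapping, Gins3 (chr8:95633309-95633558, + strand) and Pola1 (chrX:93632156-93632405, - strand) were among the genes with the largest decrease, Orc1 (chr4:108579204-108579453, + strand) had a word and was not called, and Rrm1 (chr7:102441445-102441694, + strand) had no word and a decrease called under every tested alternative.
Mcm6: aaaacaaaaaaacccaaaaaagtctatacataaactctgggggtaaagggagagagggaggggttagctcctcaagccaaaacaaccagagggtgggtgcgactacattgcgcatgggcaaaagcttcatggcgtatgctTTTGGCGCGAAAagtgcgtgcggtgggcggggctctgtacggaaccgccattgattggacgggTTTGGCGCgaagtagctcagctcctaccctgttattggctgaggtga
Gins3: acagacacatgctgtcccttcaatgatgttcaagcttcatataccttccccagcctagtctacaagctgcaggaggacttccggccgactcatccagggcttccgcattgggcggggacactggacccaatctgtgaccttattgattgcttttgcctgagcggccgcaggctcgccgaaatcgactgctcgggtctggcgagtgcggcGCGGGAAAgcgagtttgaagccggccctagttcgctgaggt
Pola1: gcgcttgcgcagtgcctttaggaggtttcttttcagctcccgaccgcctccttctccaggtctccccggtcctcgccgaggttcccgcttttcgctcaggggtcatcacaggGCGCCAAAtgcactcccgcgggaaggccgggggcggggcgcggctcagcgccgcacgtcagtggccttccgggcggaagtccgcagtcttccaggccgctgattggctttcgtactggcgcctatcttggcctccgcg
Orc1: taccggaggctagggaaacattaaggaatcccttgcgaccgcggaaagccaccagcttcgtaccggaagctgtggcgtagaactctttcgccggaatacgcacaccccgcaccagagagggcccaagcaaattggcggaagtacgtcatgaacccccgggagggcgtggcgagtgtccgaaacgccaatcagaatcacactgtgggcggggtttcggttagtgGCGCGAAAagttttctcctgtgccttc
Rrm1: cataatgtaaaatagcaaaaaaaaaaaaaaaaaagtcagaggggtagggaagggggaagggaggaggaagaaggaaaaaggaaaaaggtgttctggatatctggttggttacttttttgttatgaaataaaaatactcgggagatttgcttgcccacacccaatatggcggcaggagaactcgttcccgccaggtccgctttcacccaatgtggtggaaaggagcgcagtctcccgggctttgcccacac

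The libraries held from 5639788 to 13348230 reads on genes, with replicate 3 of each genotype the largest. The targeted gene, Irf1, had normalized counts of 2968, 2907 and 2660 in WT and 1780, 1729 and 1476 in Irf1-/- libraries, so that transcript from the locus was reduced (log2 difference -0.78, limma adjusted p = 7.32e-05) but present. Libraries of a genotype were not evenly alike: a chi-square per degree of freedom over gene counts, which is near 1 for sampling noise alone, was 1.28 between WT replicates 1 and 2 and 1.82 between Irf1-/- replicates 1 and 2, but 5.85 to 7.21 between replicate 3 and the other two of its genotype. WT replicates 1 and 2 held Y-linked transcripts, with summed normalized counts of 2301 and 2306, whereas WT replicate 3 and the 3 Irf1-/- libraries held Xist, at 16973 to 19403. The summed level of 8 T cell markers was 16157 to 16603 in WT and 15414 to 15885 in Irf1-/- libraries. Its members differed. Cd3e (log2 difference -0.30, limma adjusted p = 0.00535) and Trac (-0.32, limma adjusted p = 0.00632) were called lower. Cd3d, Cd3g and Lck were above 0 (0.14, 0.04 and 0.08) and, like Cd4, Cd28 and Cd5, not called. Both markers of CD8 T cells summed to 32.5 to 41.2 in WT and 20.3 to 30.7 in Irf1-/- libraries. In the same order, 4 NK cell markers summed to 33.7 to 51.0 and 5.5 to 21.1, with Ncr1 and Klrb1c at 0 in all. Nearly all of this was Eomes, which was called lower (log2 difference -1.86, limma adjusted p = 0.0087). The 5 B cell markers summed to 18.7 to 26.4 and 21.7 to 37.4, with Pax5 at 0 in all. The 8 myeloid markers summed to 134.0 to 262.1 and 58.8 to 764.2. Lyz2 alone was 559 in Irf1-/- replicate 2 and 7.03 in Irf1-/- replicate 3. Mpeg1 was called lower (-1.16, limma adjusted p = 0.0367), while Lyz2, Cd68 and Itgam were above 0 and not called. The part of these marker differences in the results was not tested. Fits that bear on the Y-linked and Xist transcripts and on the likeness of replicates 1 and 2 follow below. Those fits rest on few libraries and do not settle what part either had.

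Where replication genes passed the test, they were lower in Irf1-/- than in WT Th9 cells. Of the 43 genes, 17 (39.5%) had a lower normalized count at an adjusted p below 0.05 in limma's test with Benjamini-Hochberg adjustment over all genes, and 0 were higher. At an unadjusted p below 0.05 there were 25 lower and 0 higher, where all tested genes gave 18.9% lower and 17.8% higher, and both edgeR and DESeq2 called 0 higher. By the adjusted rule, 12.4% of all tested genes were lower and 11.4% higher. The log2 fold change, which here always is Irf1-/- minus WT on the log2(normalized count + 1) scale, was below 0 for 41 of the 43 genes. It ranged from -0.56 to 0.11 with a median of -0.18, while the median over all tested genes was -0.004, with 50.6% of them below 0. The interquartile range over all tested genes was -0.16 to 0.19, so that the median of the replication genes lay just below its lower end. For 26 of the 43 genes every Irf1-/- value was under every WT value, and for 0 genes every Irf1-/- value was above. Among all tested genes these shares were 20.9% and 19.7%. Without the mean-variance trend in the fit, 12 of the 17 genes lost the call, where 7.09% of all tested genes were called lower. The count of replication genes called lower was 8 without WT replicate 1, 7 without WT replicate 2 and 6 without Irf1-/- replicate 2, where 7.29%, 7.26% and 7.87% of all tested genes were lower. It was 3 (3.44% of all tested genes) when WT replicate 3 was compared with the 3 Irf1-/- libraries, all 4 of which held Xist, a fit whose spread comes from the Irf1-/- libraries alone, with the single WT library assumed to vary like them. Counting replicates 1 and 2 of each genotype as 1 averaged sample, an alternative chosen after seeing how alike they are, left 2 genes, Ccne2 and Rrm1 (3.46% of all tested genes). A covariate for the Y-linked level gave 22 (12.3% of all tested genes). Only WT replicates 1 and 2 held more than a trace of Y-linked transcripts. In that fit the genotype difference therefore rests largely on WT replicate 3 against the Irf1-/- libraries. Its spread comes in part from WT replicates 1 and 2, which are much alike. The count of 22 is thus not read as a stronger result.

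**Figure D1:**
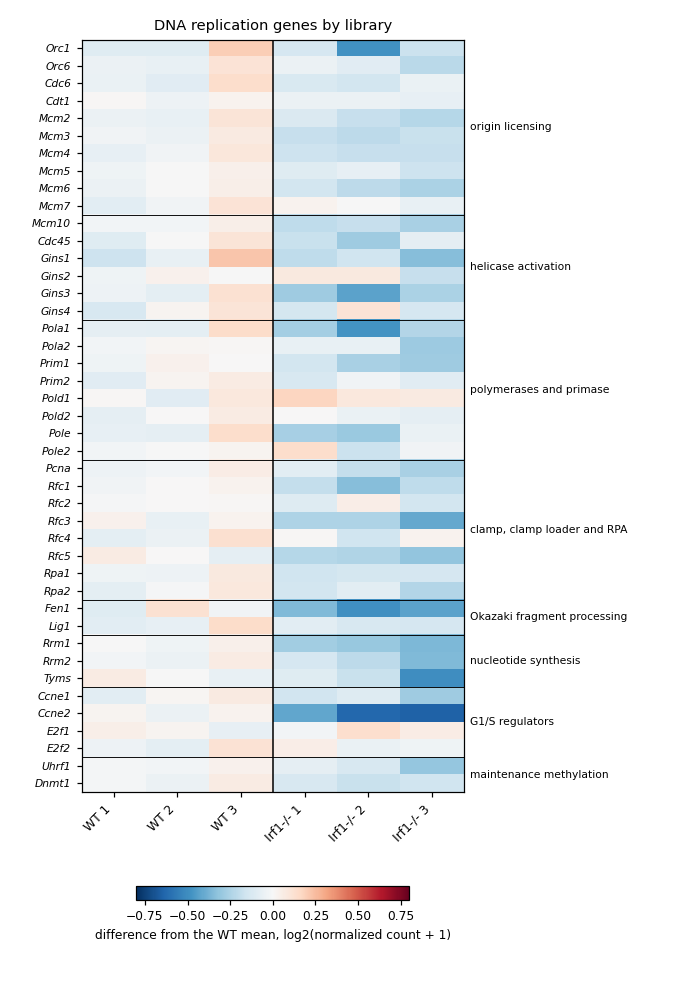
Difference of each library from the WT mean for the 43 DNA replication genes, as log2(normalized count + 1), with genes in rows grouped by role and the 6 libraries in columns. Irf1-/- columns are mostly blue (lower), and WT replicate 3 is the reddest column, with the highest value for 31 of the 43 genes.

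Added up, the 43 genes took 1.056%, 1.06% and 1.101% of the reads on genes in WT replicates 1, 2 and 3, with 95% Wilson intervals of 1.048 to 1.064, 1.052 to 1.068 and 1.095 to 1.106. In Irf1-/- replicates 1, 2 and 3 the shares were 1.004%, 0.983% and 0.946%, with intervals of 0.996 to 1.012, 0.975 to 0.991 and 0.941 to 0.951, and all intervals cover counting error only. WT libraries averaged 1.07% ± 0.025 (SD, n = 3), Irf1-/- libraries averaged 0.978% ± 0.029 (SD, n = 3), and the groups did not overlap. Fewer cells in S phase and less transcript per cell cannot be told apart in such bulk libraries. Among single genes, WT replicate 3 held the highest value for 31 of the 43, and the lowest value was in Irf1-/- replicate 3 for 22 and in Irf1-/- replicate 2 for 13. Per kilobase of exon, the levels spanned a wide range, from 1661 normalized counts in WT cells for Rrm2, then 1335 for Mcm3 and 1333 for Mcm5, down to 85.0 for Gins3 and 57.5 for Fen1. In reads, the least covered gene was Fen1 with 71 reads in its lowest library.

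**Figure D2:**
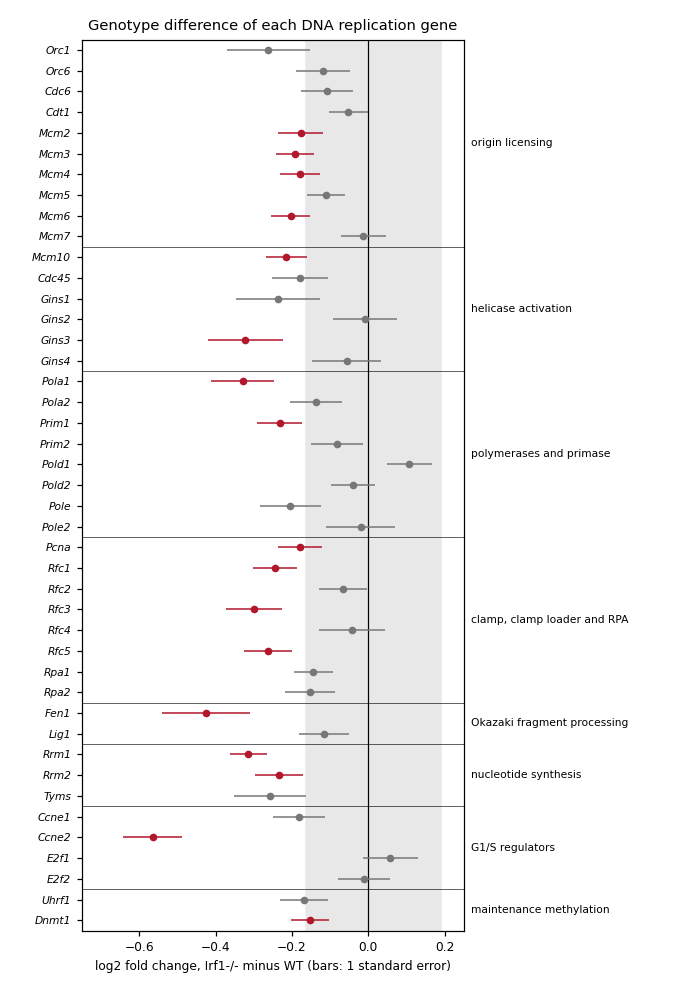
Log2 fold change (Irf1-/- minus WT, log2(normalized count + 1)) of each of the 43 genes with 1 standard error, called genes in red and the others in grey. The shaded band is the interquartile range of all tested genes (-0.16 to 0.19), and 41 of the 43 points lie left of 0.

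Origin licensing genes were lower in part, with 4 of 10 called, all of them subunits of the Mcm ring, and a median log2 fold change of -0.15. Mcm2 had normalized counts of 4167, 4137 and 4620 in WT and 3963, 3793 and 3665 in Irf1-/- replicates 1 to 3 (log2 fold change -0.18, SE 0.0583, adjusted p = 0.0494). Mcm3 had 4912, 4851 and 5260 in WT and 4401, 4324 and 4423 in Irf1-/- cells (-0.19, SE 0.0501, adjusted p = 0.0193). In both genes all Irf1-/- libraries lay under all WT libraries, and WT replicate 3 stood above the other two. Mcm4 had 4045, 4140 and 4501 in WT and 3769, 3711 and 3716 in Irf1-/- cells (-0.18, SE 0.0533, adjusted p = 0.0341). Mcm6 had 5199, 5357 and 5531 in WT and 4838, 4631 and 4503 in Irf1-/- cells (-0.20, SE 0.0506, adjusted p = 0.0152), 86.8% of the WT mean. The remaining ring subunits were not called, Mcm5 at -0.11 with no overlap between the groups and Mcm7 at -0.01 with overlap. Of the loading factors, Orc1, the largest subunit of the origin recognition complex, was at -0.26 (SE 0.11, adjusted p = 0.111), with 534, 535 and 655 in WT and 522, 409 and 509 in Irf1-/- libraries. Its groups did not overlap, but WT replicate 3 and Irf1-/- replicate 2 lay far from the rest. Orc6, Cdc6 and Cdt1 were at -0.12, -0.11 and -0.05, with adjusted p from 0.254 to 0.494. In a 23.3% share of its 50-base words, Mcm7 was identical to other genes, so its value is uncertain.

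Helicase activation genes had 2 of 6 called and a median of -0.20. Mcm10, which helps to start unwinding, had 1451, 1452 and 1523 in WT and 1280, 1301 and 1235 in Irf1-/- cells (-0.21, SE 0.0533, adjusted p = 0.0153). Gins3, a subunit of the GINS complex, had 223, 218 and 250 in WT and 189, 171 and 192 in Irf1-/- cells (-0.32, SE 0.0982, adjusted p = 0.037). The other GINS subunits were not called, with Gins1 at -0.24 (SE 0.11, adjusted p = 0.148), Gins4 at -0.06 and Gins2 at -0.01, all with overlap between the groups. Cdc45 was at -0.18 (adjusted p = 0.103). Of the exon bases of Gins2, 67.3% overlap Gse1 on the other strand, and strand use in the counting was not given in the sources used here.

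Among polymerases and primase, 2 of 8 genes were called and the median was -0.11. Pola1, the catalytic subunit of polymerase α, had 1207, 1202 and 1402 in WT and 1051, 908 and 1075 in Irf1-/- cells (-0.33, SE 0.0825, adjusted p = 0.0159), 79.6% of the WT mean. Prim1, the catalytic subunit of primase, had 1077, 1128 and 1102 in WT and 993, 921 and 904 in Irf1-/- cells (-0.23, SE 0.0593, adjusted p = 0.0175). Thus the catalytic subunits of the enzyme that starts each strand were called lower, while the accessory subunits Pola2 (-0.14, adjusted p = 0.18) and Prim2 (-0.08, adjusted p = 0.428) were not, a difference between subunits that was not itself tested. Of the enzymes that extend the strands, Pole was at -0.20 (adjusted p = 0.0885), Pold2 at -0.04 and Pole2 at -0.02. Pold1, the catalytic subunit of polymerase δ, was the gene with the highest log2 fold change of all 43, 0.11 (SE 0.0592, adjusted p = 0.219), with 2422, 2254 and 2548 in WT and 2708, 2546 and 2524 in Irf1-/- cells. The groups overlapped through WT replicate 3.

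The clamp, clamp loader and RPA group had 4 of 8 genes called and a median of -0.17. Pcna, the sliding clamp, had 2753, 2788 and 2955 in WT and 2665, 2482 and 2363 in Irf1-/- cells (-0.18, SE 0.0586, adjusted p = 0.0485). Rfc1, the large clamp loader subunit, had 1988, 2032 and 2076 in WT and 1783, 1602 and 1765 in Irf1-/- cells (-0.24, SE 0.0574, adjusted p = 0.0118). For both genes the groups did not overlap, and the Irf1-/- values were more spread than the WT values. Rfc3 had 534, 501 and 532 in WT and 441, 440 and 394 in Irf1-/- cells (-0.30, SE 0.0735, adjusted p = 0.0143). Rfc5 had 941, 900 and 854 in WT and 765, 759 and 722 in Irf1-/- cells (-0.26, SE 0.0622, adjusted p = 0.0122). Both encode small subunits of the loader, whereas the small subunits Rfc2 and Rfc4 were at -0.07 and -0.04 with overlap between the groups. Rpa1 and Rpa2, which coat single-stranded DNA, were at -0.14 (adjusted p = 0.0679) and -0.15 (adjusted p = 0.114) with no overlap. Pcna shares 19.1% of its 50-base words with the pseudogene Pcna-ps2, and 15.1% of the exon bases of Rfc2 overlap Lat2 on the other strand. For Rfc5, which was called, 10.7% overlap Wsb2 on the other strand, and for Rfc4 12.7% overlap Eif4a2. Rfc5 also shares 13.3% of its 50-base words with other genes.

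Okazaki fragment processing was represented by 2 genes. Fen1, the flap nuclease that trims the fragments, had 130, 152 and 136 in WT and 109, 98.5 and 103 in Irf1-/- cells (-0.42, SE 0.116, adjusted p = 0.0232), the second largest decrease of the list. For Fen1, 84.2% of the exon bases overlap Gm10143 and Tmem258 on the other strand, so that without strand its reads cannot be told apart from theirs. Lig1, the ligase, was at -0.12 (adjusted p = 0.228), and WT replicate 3, at 3736, stood above the other WT libraries at 3172 and 3226.

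In nucleotide synthesis, 2 of 3 genes were called, the third had no overlap either, and the median of -0.26 lay below that of every role with more than 2 genes. Rrm1 (ENSMUSG00000030978, the large subunit of ribonucleotide reductase, which makes deoxyribonucleotides) had 5208, 5099 and 5368 in WT and 4299, 4233 and 4074 in Irf1-/- libraries. It was down to 80.4% of the WT mean (log2 fold change -0.31, SE 0.0485, adjusted p = 0.00131), and the gap between the groups was wider than the spread within either. Rrm2, the small subunit of the same enzyme and the most abundant of the 43 genes per kilobase of exon, had 4536, 4449 and 4822 in WT and 4188, 3970 and 3600 in Irf1-/- cells (-0.23, SE 0.0631, adjusted p = 0.0225). Tyms, which makes thymidylate, had 1109, 1057 and 1019 in WT and 992, 936 and 752 in Irf1-/- cells (-0.26, SE 0.0939, adjusted p = 0.0705). In Rrm2 and Tyms the Irf1-/- values were spread, and Irf1-/- replicate 3 was the lowest.

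The G1/S regulators spanned the widest range of log2 fold changes of the 8 roles, and 1 of 4 was called. Ccne2 (ENSMUSG00000028212), which encodes cyclin E2, had 681, 650 and 685 in WT and 504, 434 and 428 in Irf1-/- libraries. At 67.7% of the WT mean (log2 fold change -0.56, SE 0.0773, adjusted p = 0.000643), it had the largest decrease of the list, and the groups were far apart. Its paralog Ccne1, cyclin E1, was at -0.18 (SE 0.0684, adjusted p = 0.08) with no overlap, 907, 974 and 1010 in WT against 864, 894 and 791 in Irf1-/- cells. The transcription factor genes E2f1 and E2f2 were at 0.06 (adjusted p = 0.606) and -0.01 (adjusted p = 0.932), with overlap, so that a genotype difference in either was not detectable in these libraries. Of the exon bases of Ccne2, 17.4% overlap Ints8 on the other strand.

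For maintenance methylation, which copies the methylation pattern onto the new strand, 1 of 2 genes was called. Dnmt1, the methyltransferase, had 7244, 7087 and 7668 in WT and 6710, 6485 and 6574 in Irf1-/- cells (-0.15, SE 0.0496, adjusted p = 0.0462), a small decrease with no overlap. Uhrf1, which brings Dnmt1 to hemimethylated sites, was at -0.17 (SE 0.0637, adjusted p = 0.0807) with no overlap, and Irf1-/- replicate 3, at 3204, lay under the other Irf1-/- libraries at 3779 and 3628.

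**Figure D3:**
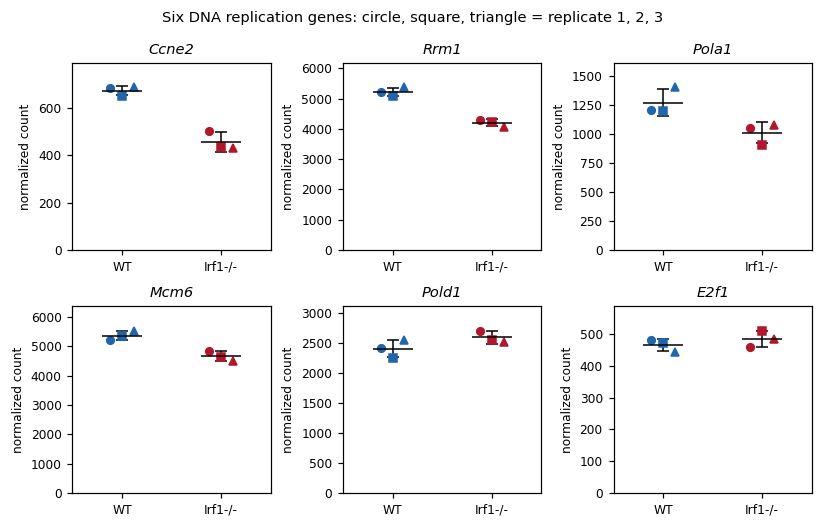
Normalized counts of 6 genes in each library, WT in blue and Irf1-/- in red, with circles, squares and triangles for replicates 1, 2 and 3, a long bar at the group mean and whiskers of 1 SD (n = 3). Ccne2, Rrm1, Pola1 and Mcm6 have no overlap between the genotypes, and Pold1 and E2f1 overlap.

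Only Ccne2 and Rrm1 were called under all 20 alternatives that gave a test, the one with a single WT library included. Their log2 fold changes ran from -0.68 to -0.51 and from -0.40 to -0.26 across the settings. Pola1, Rfc1 and Rfc3 lost the call in 3 of the 20, Mcm10 in 4, Mcm6 and Rfc5 in 5, Mcm3, Prim1 and Fen1 in 6 and Rrm2 in 7. Gins3, Mcm4, Dnmt1, Pcna and Mcm2 lost it in 9, 10, 11, 12 and 13. No called gene changed its direction under any alternative.

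Both genotypes had smaller libraries in replicates 1 and 2 and larger ones in replicate 3, and the replication genes were compared within each set. Within replicates 1 and 2 alone the median log2 fold change was -0.10, with 36 of 43 genes below 0. There 19 genes were called lower and 1 higher, Pold1 at 0.17 (adjusted p = 0.00561), where 18.3% of all tested genes were lower and 15.9% higher. Within replicate 3, with 1 library for each genotype and so no test, the median was -0.28 and 42 of 43 genes were below 0, E2f1 at 0.13 being the exception. As a description with no test, the log2 fold change was lower in replicate 3 than in replicates 1 and 2 for 37 of the 43 genes, among them all 10 origin licensing genes, and for 51.6% of all tested genes. By role, the medians in replicates 1 and 2 and in replicate 3 were -0.08 and -0.26 for origin licensing, -0.12 and -0.27 for helicase activation, and -0.05 and -0.17 for polymerases and primase. They were -0.11 and -0.24 for the clamp, its loader and RPA, and -0.17 and -0.42 for nucleotide synthesis. Across the 43 genes, which share libraries and are not independent replicates, both sets of log2 fold changes had a Pearson r of 0.67 and a Spearman rho of 0.66. A fit of the difference between the sets, added after seeing the data, called 1 of the 43 genes and 1.27% of all tested genes, and no difference of the replication genes between the sets is read from it. In this fit and in that of replicates 1 and 2 alone, the spread comes only from replicates 1 and 2, which differed by little more than sampling noise. Library size, the Y-linked and Xist transcripts and any difference in culture cannot be told apart between the sets.

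**Figure D4:**
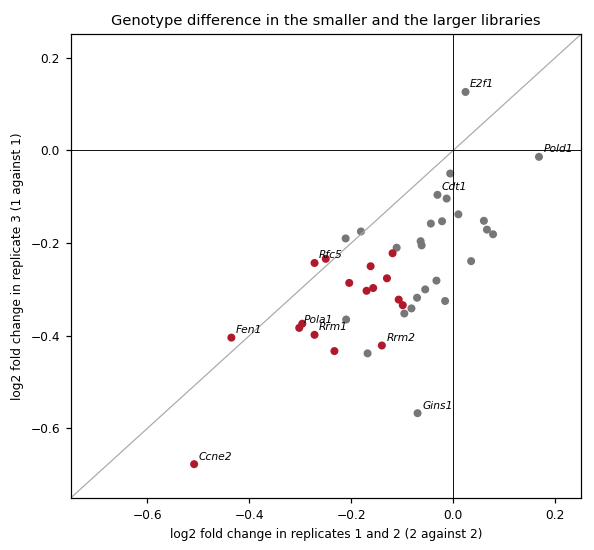
Log2 fold change (Irf1-/- minus WT) of the 43 genes in replicates 1 and 2 (horizontal, 2 against 2 libraries) and in replicate 3 (vertical, 1 against 1), with genes called in all 6 libraries in red and the line of equal values in grey. Most points, 37 of 43, lie below the line, and Ccne2 is lowest in both.

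Related genes were also lower more often than higher where they were called. Of 124 further genes tested from 6 related lists, 44 (35.5%) were lower and 7 (5.6%) higher, with a median log2 fold change of -0.14. Among all tested genes, 12.4% were called lower and 11.4% higher. Among 34 other replication factors 10 were lower and 2 higher, Pold4 (0.47, adjusted p = 0.0151) and Rnaseh2a (0.40, adjusted p = 0.00362), a subunit of polymerase δ and the catalytic subunit of ribonuclease H2. Of 20 further genes of nucleotide supply 8 were lower and 1 higher, Shmt2 (0.36, adjusted p = 0.00211), a mitochondrial enzyme of serine and folate metabolism. Replication-coupled chromatin assembly had 4 of 13 lower, namely Hat1 (-0.43), Supt16 (-0.35), Hells (-0.34) and Slbp (-0.26), and 1 higher, Tonsl (0.19). Mitosis genes, which act after replication, had 11 of 31 lower and 1 higher, Cenpa (0.18), with a median of -0.13. Of the genes given with these lists, those outside the size rule stated for named genes were chosen after their values were seen.

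Genes on both sides of the G1/S switch were among those that fell. Of 14 other G1/S activators 6 were lower and 1 higher, Ccnd3 (0.18). Of 12 inhibitors tested 5 were lower and 1 higher, Cdkn2d (0.36). Over all tested genes the shares were 12.4% lower and 11.4% higher. Cdk6, a kinase partner of D cyclins, had 683, 786 and 713 in WT and 529, 466 and 303 in Irf1-/- cells (-0.78, SE 0.165, adjusted p = 0.00694). Cdkn1a, which encodes the cell cycle inhibitor p21, had 1056, 1170 and 855 in WT and 617, 614 and 505 in Irf1-/- cells (-0.82, SE 0.115, adjusted p = 0.000749). E2f7, a repressor of E2F target genes, had 178, 192 and 177 in WT and 106, 111 and 82.4 in Irf1-/- cells (-0.87, SE 0.132, adjusted p = 0.00115). Each of these lay further below 0 than any of the 43 replication genes. The remaining inhibitors called lower were E2f8 (-0.50), a related repressor, Rb1 (-0.41), which encodes the retinoblastoma protein, and E2f6 (-0.32), chosen after their values were seen. Of the related genes named, Hat1, Supt16, Hells and E2f8 were called under all 20 alternatives, while Cenpa lost the call in 11, Tonsl in 10, E2f6 in 9, Ccnd3 in 7, Rb1 in 5, Slbp and Cdkn2d in 4, Pold4 in 3, and Rnaseh2a and Shmt2 in 2. Cdk6 lost its call without a trend in the fit, in the 4 libraries with Xist and with replicates 1 and 2 averaged, while Cdkn1a and E2f7 were called under all 20 alternatives.

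**Figure D5:**
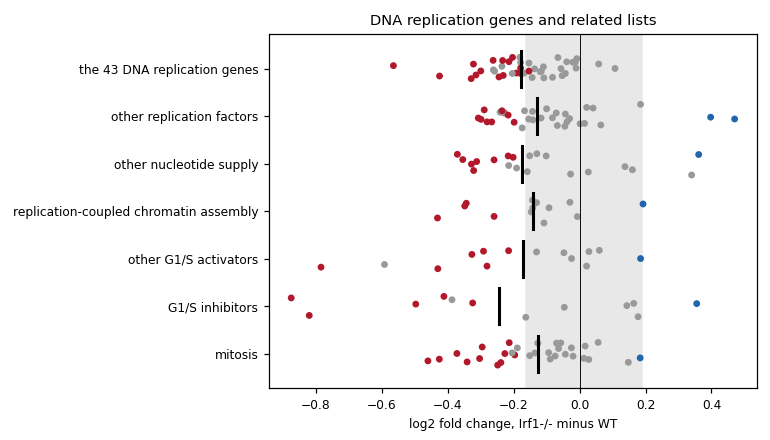
Log2 fold change (Irf1-/- minus WT) of each tested gene in the 43 DNA replication genes and 6 related lists, with genes called lower in red, called higher in blue and not called in grey, spread vertically for legibility. Black bars are list medians, from -0.24 for G1/S inhibitors to -0.13 for mitosis, and the shaded band is the interquartile range of all tested genes.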

How the data were processed

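RNA was sequenced from 3 WT and 3 Irf1-/- Th9 cultures as single-end poly(A) libraries. The authors aligned reads to GRCm38 with STAR 2.4.0b, counted them per Ensembl gene with featureCounts, and used DESeq2 1.12.3, as the submitters' processing notes and the paper's methods give them. The deposited signal is a normalized count, made by dividing each read count by the size factor of the library. For 100% of non-zero values in each column these were whole multiples of a single step (tolerance 0.1%), so that reads were recovered as whole reads. Strand use and the treatment of reads matching several genes were not given in the sources used here. Gene symbols were matched for 40254 of 41388 identifiers.

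Genotypes were compared in R 4.3.3 with limma 3.58.1 (eBayes with a mean-variance trend) on log2 values after adding 1, for the genes whose mean reached 10, with p-values adjusted after Benjamini-Hochberg and called below 0.05. The files hold normalized values, so count models on the whole reads (edgeR 4.0.16, DESeq2 1.42.0) were alternatives. Other settings used a pseudocount of 0.1 or 10, a filter at a mean of 50 or none, TMM factors, quantile normalization, no trend, a replicate block, a covariate for the Y-linked level, each library left out, and subsets of libraries. Exon overlaps and 50-base words shared with other genes were taken from GENCODE vM21 on GRCm38, and promoters from RefSeq. The scripts were tested on simulated data. Values are given in every library for genes called and for the 5 genes with the largest size of log2 fold change. From related lists, genes called with a size of at least 0.5 are named. The 43 genes and all lists were chosen with earlier results of these data known, so no p over a list is given. ChIP-Seq data were not analysed here.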

Additional observations from a re-analysis of the deposited data

Results flagged for a closer look

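Rrm2, the small subunit of ribonucleotide reductase, had a log2 fold change of -0.14 in replicates 1 and 2 and of -0.42 in replicate 3, a difference of -0.28 that was past the threshold in a fit added after the libraries had been seen (adjusted p = 0.0413 in limma's fit across all genes). That p does not establish a difference. Replicate 3 has 1 library for each genotype, so the spread comes only from replicates 1 and 2, whose chi-square per degree of freedom of 1.28 in WT and 1.82 in Irf1-/- cells was little above sampling noise. The fit called 144 of 11379 genes (1.27%) and 1 of the 43. The sets also differ in library size, and in replicates 1 and 2 the WT libraries hold Y-linked transcripts while the Irf1-/- libraries hold Xist. The part of either in the difference was not tested.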

How the results depend on the processing

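The direction of all 17 called genes held under every alternative. The number of replication genes called lower, 17 in the reported fit, was 17 with pseudocounts of 0.1 and 10, a mean of at least 50, TMM factors and edgeR, 13 with no filter and 12 with DESeq2. It was 11 with quantile normalization, 5 without a trend, 3 in the 4 libraries with Xist and 2 with replicates 1 and 2 averaged, and it was 22 with a covariate for the Y-linked level. With 1 library left out it ran from 6 to 16. Of all tested genes, 6.09% were lower with no filter, 9.32% with DESeq2, 10.7% with quantile normalization and 7.09% without a trend. The share was 12.3% to 14.5% in the settings that gave 17, and 7.26% to 12.9% with 1 library left out. One gene was called higher, in replicates 1 and 2 alone. The median log2 fold change was -0.28 in replicate 3 alone and -0.11 after quantile normalization, and it ran from -0.20 to -0.13 with 1 library left out. The causes of these shifts were not tested. In the fit with the Y-linked covariate the genotype difference rests largely on WT replicate 3. With 1 replicate left out, calls rest on fewer samples.

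Over all genes, 1406 lower and 1293 higher became 807 and 928 without a trend, 829 and 808 without WT replicate 1, 826 and 799 without WT replicate 2, 895 and 820 without Irf1-/- replicate 2, 392 and 392 in the 4 libraries with Xist, and 394 and 413 with replicates 1 and 2 averaged. Replicates 1 and 2 alone gave 2085 and 1810. For related genes, 44 lower and 7 higher became 21 and 4 without a trend, 12 and 0 in the 4 libraries with Xist and 11 and 0 with replicates 1 and 2 averaged.

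A replicate block called 25 replication genes lower, 0 higher, and 2116 and 1893 of all genes. All 17 remained and 8 were gained, Orc1, Cdc45, Pole, Rpa1, Rpa2, Tyms, Ccne1 and Uhrf1, with adjusted p from 0.00203 to 0.0473. Deviations of same-numbered libraries correlated at 0.092, 0.269 and 0.321 over all genes tested and at 0.23, 0.369 and 0.447 over the 43 replication genes. The numbers were not taken as pairs, since the lowest over all genes was under 0.1 and the labels name no shared animal or day, but each library correlated best with its own number by either measure, a hint from the data.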
